A study of Zea mays with 12 samples.

Results

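The genes described here are the 80 leaf genes of maize whose transcripts were higher after 1 h of blue light in both genotypes of the study but gained less in the mutant stock zmcryq than in the inbred line B73, labelled as wild type. They were chosen from 21472 genes that reached 1 FPKM or more in at least 3 libraries, out of 44303 gene IDs in the table. FPKM is a fragment number divided by the length of the transcript and by the library's mapped fragments. Each library was divided by its median ratio to the gene geometric means, giving scaled FPKM, and group means were taken of log2(scaled FPKM + 1). A gene was a member where the blue minus dark difference was 1 or more in zmcryq and 2 or more in B73, and where the B73 value exceeded the zmcryq value by 1.5 or more. These same values chose the members, so the sizes of both responses and of their difference are given as a description, with no test.

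Leaf RNA came from 4 groups of 3 libraries: zmcryq lit with blue for 1 h, zmcryq left unlit, B73 lit with blue for 1 h and B73 left unlit. All seedlings were 7 days old, had been raised in long days of white light and had spent 48 h in the dark. The labels name no allele or cryptochrome gene for zmcryq, do not say how its background relates to B73, and do not say whether replicates were grown as separate plants. The fit across genes therefore measures only how these 12 libraries scatter, and that scatter may be technical. Totals per library ran from 588717 to 814802 FPKM, and the scaling factors from 0.507 (zmcryq dark replicate 1) up to 1.64 (zmcryq blue replicate 3). B73 blue replicate 2 had the second-lowest factor, 0.567, and its deposited values were accordingly low for nearly every gene named below. Read depth per library is not given by the table.

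Cryptochromes are flavoprotein receptors that absorb blue and ultraviolet-A light. In Arabidopsis, light-activated cryptochromes bind and inhibit the COP1/SPA ubiquitin ligase, which otherwise marks transcription factors such as HY5 for degradation, and they also bind transcription factors directly. Plants sense blue light through other receptors too, among them the phototropins and the ZEITLUPE family, and phytochromes absorb some blue light, so a transcript can answer blue light by several routes. The files do not pair the gene IDs with names, and 0 of the 80 IDs occur in the RefSeq gene table used here, so no name, function or sequence is given for any member. For the same reason the cryptochrome genes and leaf marker genes were not checked in these libraries.

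The 80 members were 12.7% of the 630 genes whose blue response in B73 was 2 or more on the log2 scale. Of the other 550 genes, 337 had a zmcryq response under 1 and 213 had responses that differed by less than 1.5. Because the zmcryq response had to reach 1 and the gap 1.5, no member could have a B73 response under 2.5. At the limit of the zmcryq response, the 3 members just inside had zmcryq responses of 1.01, 1.02 and 1.02, and the 3 genes just outside had 0.98, 0.97 and 0.96. At the limit of the gap, B73 minus zmcryq, the 3 members just inside stood at 1.5, 1.51 and 1.52 and the 3 genes just outside at 1.49, 1.47 and 1.47. The members thus adjoin the other genes at both limits of the rule, as the plot of the responses in both genotypes shows. The median difference of the responses, zmcryq minus B73, was -2.19 in the members. It was -2.36 in the 337 genes and -0.67 in the 213 genes.

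**Figure D1:**
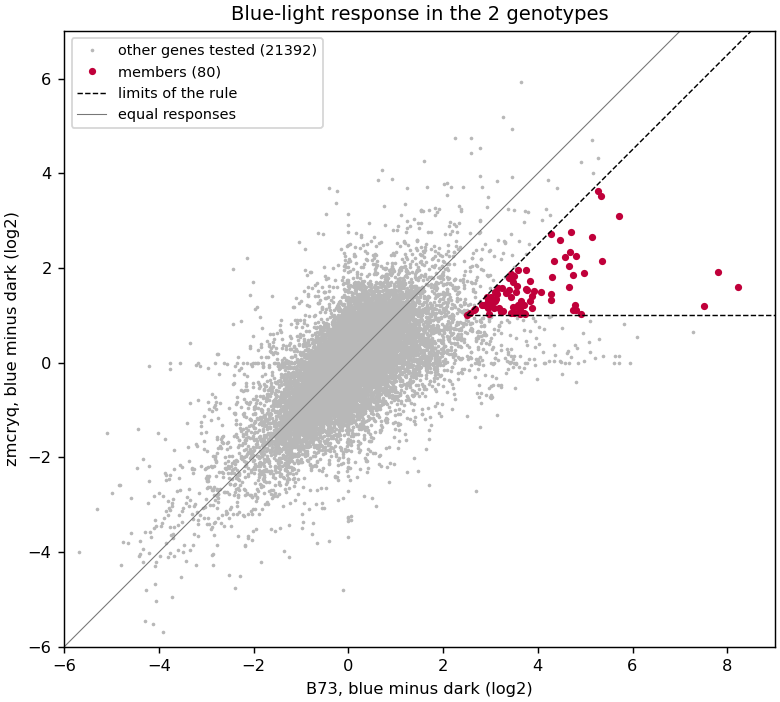
Blue minus dark difference on the log2(scaled FPKM + 1) scale in B73 (x axis) and zmcryq (y axis), with 1 point per gene tested; red points are the 80 members, dashed lines the limits of the rule and the grey line equal responses. The members adjoin the other genes at both dashed limits, and 3 of them stand apart with B73 responses between 7.51 and 8.24.

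In the median member the level was low in the dark in both genotypes, moderate in zmcryq under blue light and high in B73 under blue light. The median over the 80 members of log2(scaled FPKM + 1) was 3.15, 3.27 and 3.37 in the zmcryq blue libraries and 1.62, 1.87 and 1.65 in the zmcryq dark libraries. It was 6.41, 6.43 and 6.54 in the B73 blue libraries and 2.34, 2.46 and 2.55 in the B73 dark libraries. No library of one group reached the range of another group, and the largest spread within a group was 0.14 (SD, n = 3), in zmcryq dark. The same median over all 21472 genes lay between 3.06 and 3.15 in each library after scaling. The rule chose the members on these same libraries, so the separation of the groups is a description, with no test.

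Summed over the 80 members, the level was 1698 ± 135 scaled FPKM in zmcryq blue and 490 ± 30.8 in zmcryq dark, a 3.46-fold increase. In B73 the sum was 17105 ± 349 scaled FPKM in blue and 892 ± 34.5 in the dark, a 19.2-fold increase (SD, n = 3 in each group). The sum in zmcryq was therefore 55.0% of that in B73 in the dark and 9.93% of it under blue light. A single gene, Zm00001eb149430, held 18.6% of the B73 blue sum, and without it the sum was 3.46-fold higher in blue than in the dark in zmcryq and 15.8-fold higher in B73. In bulk leaf RNA, fewer cells expressing a gene and less RNA per cell cannot be told apart.

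**Figure D2:**
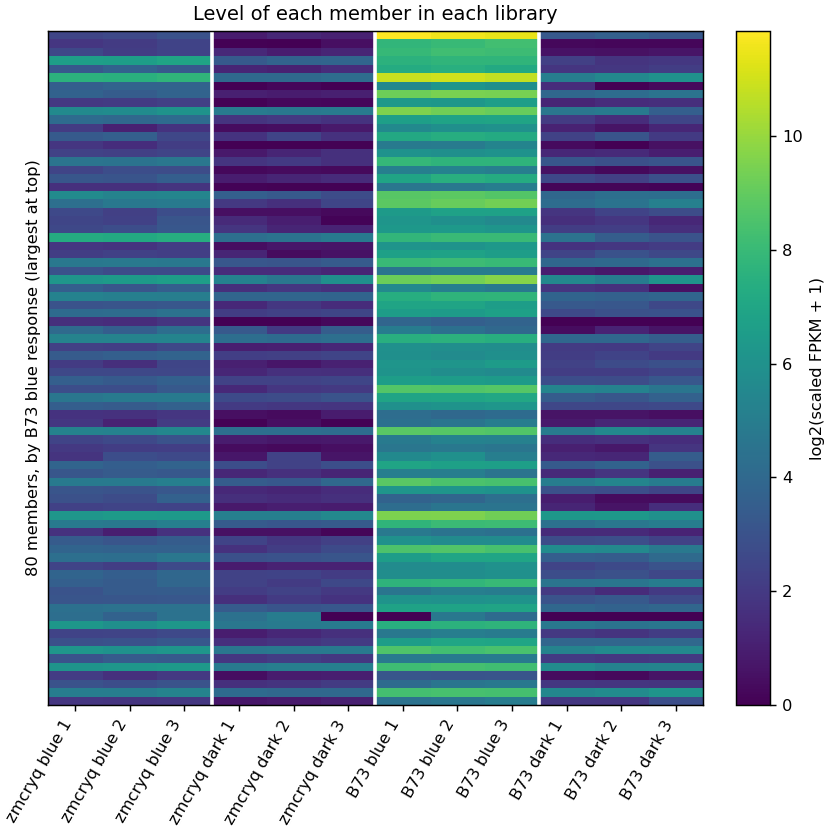
Level of each of the 80 members (rows, ordered by B73 response, largest at the top) in each of the 12 libraries (columns), as log2(scaled FPKM + 1). The B73 blue columns are the brightest in nearly every row. In most rows the zmcryq blue columns are intermediate and the dark columns of both genotypes are the darkest. In 14 rows the mean of zmcryq blue was below that of B73 dark.

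Few members were abundant before blue light. Mean levels were under 1 scaled FPKM for 22 members in zmcryq dark and for 13 in B73 dark, and no member reached 100 scaled FPKM in either dark group. Under blue light 3 members reached 100 scaled FPKM in zmcryq, against 38 in B73. Most members (45 of 80) lay between 1 and 10 scaled FPKM in zmcryq blue, where B73 blue had 1 member in that range. The median member stood at 8.66 scaled FPKM in the blue-lit mutant, against 88.4 scaled FPKM in the blue-lit wild type.

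The blue response of a member was 1.40 in zmcryq and 3.63 in B73 at the median on the log2 scale. Responses ran from 1.01 to 3.63 in zmcryq and from 2.51 to 8.24 in B73. In zmcryq 46 members had responses from 1 to under 1.5, 21 from 1.5 to under 2, 10 from 2 to under 3 and 3 of 3 or more. The zmcryq response was 40.9% of the B73 response at the median on the log2 scale, with a range from 15.8% to 68.8%. As a ratio of scaled group means with no pseudocount, the median increase was 3.68-fold in zmcryq over all 80 members and 16.0-fold in B73 over the 78 members not listed at 0 throughout B73 dark.

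The difference of the responses, zmcryq minus B73, had a median of -2.19 and ran from -6.63 to -1.5. The gap was under 2 for 34 members, from 2 to under 3 for 36, from 3 to under 4 for 7 and 4 or more for 3. When the members were ranked by their B73 response and divided into 4 bins of 20, the median zmcryq response was 1.21, 1.43, 1.47 and 1.98 from the lowest to the highest bin. The median B73 response in those bins was 2.95, 3.47, 3.85 and 4.86. Members with the highest response in B73 therefore also had the highest median response in zmcryq, and the median share of the response kept was between 36.4% and 42.4% in every bin. The rule itself holds each zmcryq response at 1 or more and at least 1.5 below the B73 response. This limits it most in the lowest bin, so nothing is read from the rise across bins or from the share kept.

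In limma's moderated test over all 21472 genes, with Benjamini-Hochberg adjusted p under 0.05, 78 of the 80 members were called higher in blue light in zmcryq, where 28.3% of all genes were. For B73 the count was 79, against 26.9% of all genes, and 78 members were called as having the smaller response in zmcryq, against 15.0% of all genes. These contrasts chose the members, and nothing is read from the counts. The members outside them were Zm00001eb067330 in all 3 tests and Zm00001eb072930 for the zmcryq response and the difference. Both are named after their values were seen, and so are all further IDs except Zm00001eb149430 and Zm00001eb258360.

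For Zm00001eb067330 the label of a reduced but kept response was not borne out by the libraries. It was listed at 23.4, 10.7 and 34.2 FPKM in zmcryq blue, at 10.3, 32.2 and 0 FPKM in zmcryq dark, at 0, 14.7 and 24.6 FPKM in B73 blue and at 0 in all 3 B73 dark libraries. Its blue and dark libraries overlapped in both genotypes, the overlap in B73 being that of 0 with 0, and the limma adjusted p was 0.57 for the zmcryq response, 0.11 for the B73 response and 0.54 for the difference. Single libraries decided its values: without B73 blue replicate 1 the B73 response was 4.44 (limma adjusted p 0.016) in place of 2.96, and the genotype difference under blue light was -0.28 in place of 1.20. Without zmcryq dark replicate 3 the zmcryq response was -0.53 in place of 1.04, and the dark difference was 4.68 (limma adjusted p 0.011) in place of 3.12. Zm00001eb072930 stood at 3.14, 5.26 and 8.47 FPKM in zmcryq blue and 0.33, 4.32 and 0.42 FPKM in zmcryq dark, with 68.8, 33.98 and 48.3 FPKM in B73 blue and 1.86, 1.51 and 10.3 FPKM in B73 dark. Zmcryq dark replicate 2 and B73 dark replicate 3 were each several times above the other libraries of their group. The zmcryq response of this gene was 1.18 ± 0.65 (SE, limma adjusted p 0.15), while its B73 blue and dark libraries did not overlap. In the other 78 members the blue libraries were all above the dark libraries in scaled values in both genotypes, as they were for 35.1% of all genes in zmcryq and 28.6% in B73.

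The largest B73 response and the largest reduction both belonged to Zm00001eb149430. In zmcryq it was listed at 5.81, 4.48 and 11.5 FPKM in blue and at 0.44, 1.59 and 0.81 FPKM in the dark. In B73 it was listed at 5304, 1730 and 4203 FPKM in blue and at 10.4, 11.8 and 8.42 FPKM in the dark. In scaled values every blue-lit zmcryq library was below every dark B73 library, with means of 5.58 and 9.56 scaled FPKM, and every zmcryq dark library was lower still. On the log2 scale the blue response was 1.61 ± 0.16 in zmcryq and 8.24 ± 0.16 in B73 (SE), a 4.84-fold and a 333-fold increase of the scaled mean. Under quantile normalization the zmcryq response was 1.5 (limma adjusted p 0.067).

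Zm00001eb258360 had the second-largest B73 response and, unlike Zm00001eb149430, no called difference between the genotypes before the light, where its level was near 0. It stood at 3.40, 2.77 and 6.92 FPKM in zmcryq blue and at 0.03, 0 and 0.29 FPKM in zmcryq dark. The B73 values were 319, 143 and 451 FPKM in blue and 0.22, 0.15 and 0.14 FPKM in the dark. The dark groups overlapped, with a log2 difference, zmcryq minus B73, of -0.02 ± 0.17 (SE), whereas under blue light the difference was -5.90 ± 0.17. With a pseudocount of 0.1 the dark difference was -0.37 (limma adjusted p 0.53). The response was 1.92 ± 0.17 in zmcryq and 7.80 ± 0.17 in B73.

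Zm00001eb055330 kept the smallest share of its response, 15.8% on the log2 scale. Its values were 6.2, 3.00 and 6.84 FPKM in zmcryq blue and 0.78, 1.03 and 0.96 FPKM in zmcryq dark, with 350, 170 and 415 FPKM in B73 blue and 0.56, 0.46 and 0.57 FPKM in B73 dark. Every zmcryq dark library was above every B73 dark library, and every zmcryq blue library was far below every B73 blue library. The response was 1.19 ± 0.13 in zmcryq and 7.51 ± 0.13 in B73 (SE). The dark difference, zmcryq minus B73, was 0.59 ± 0.13, against 0.33 without scaling (limma adjusted p 0.66). It was 1.18 where the pseudocount was 0.1 and 0.19 where it was 5 (limma adjusted p 0.090).

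At the other end, Zm00001eb106160 and Zm00001eb264880 had the largest zmcryq responses. Zm00001eb264880 was among the most abundant members, at 246, 157 and 350 FPKM in zmcryq blue, 7.84, 16.7 and 13.0 FPKM in zmcryq dark, 2641, 1137 and 2581 FPKM in B73 blue and 37.7, 46.6 and 62.3 FPKM in B73 dark. Its 4 groups did not overlap, and in scaled means it was 12.1-fold higher in blue than in the dark in zmcryq and 39.8-fold higher in B73. The log2 responses were 3.51 ± 0.19 in zmcryq and 5.33 ± 0.19 in B73 (SE), so 65.9% of the response was kept. Without scaling between libraries the difference of the responses, zmcryq minus B73, was -1.14 (limma adjusted p 0.45) in place of -1.82.

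Zm00001eb106160 stood at 13.4, 11.1 and 20.8 FPKM in zmcryq blue, 0.01, 0.15 and 0 FPKM in zmcryq dark, 66.2, 39.8 and 88.3 FPKM in B73 blue and 2.09, 0.02 and 0.22 FPKM in B73 dark. It was nearly absent in both dark groups, apart from B73 dark replicate 1. Its response was 3.63 ± 0.31 in zmcryq and 5.27 ± 0.31 in B73 (SE) on the log2(scaled FPKM + 1) scale. As a ratio of scaled means with no pseudocount the order turned, with a 227-fold increase in zmcryq and an 85.6-fold increase in B73, a ratio that rests on dark values of a few hundredths to 2 FPKM. Zm00001eb165630, also near 0 in the dark, was the only other member whose ratio was higher in zmcryq, by 0.56 on the log2 scale. The difference of the responses of Zm00001eb106160, -1.64, was -0.70 with a pseudocount of 0.1 (limma adjusted p 0.71), -1.43 without scaling (0.18) and -1.53 without both libraries of lowest factor (0.077).

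The difference of the responses is by arithmetic the genotype difference under blue light minus that in the dark, each zmcryq minus B73. Both enter the rule through this subtraction, so their split is a description as well. Under blue light 79 of the 80 members were lower in zmcryq, with a median of -3.03, and 77 were called lower, against 28.1% of all genes. In the dark 62 members were lower in zmcryq and 18 higher, with a median of -0.65, against 0.03 over all genes tested. The test called 46 members lower in zmcryq in the dark, against 24.7% of all genes, and 7 higher, against 25.1%. In both lights 77.5% of the members stood lower in the mutant, against 60.8% of the 630 genes raised in B73 and 35.4% of all genes. Of those 630 genes 86.3% were called lower in zmcryq under blue light, so the 77 members called there are a description only.

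**Figure D3:**
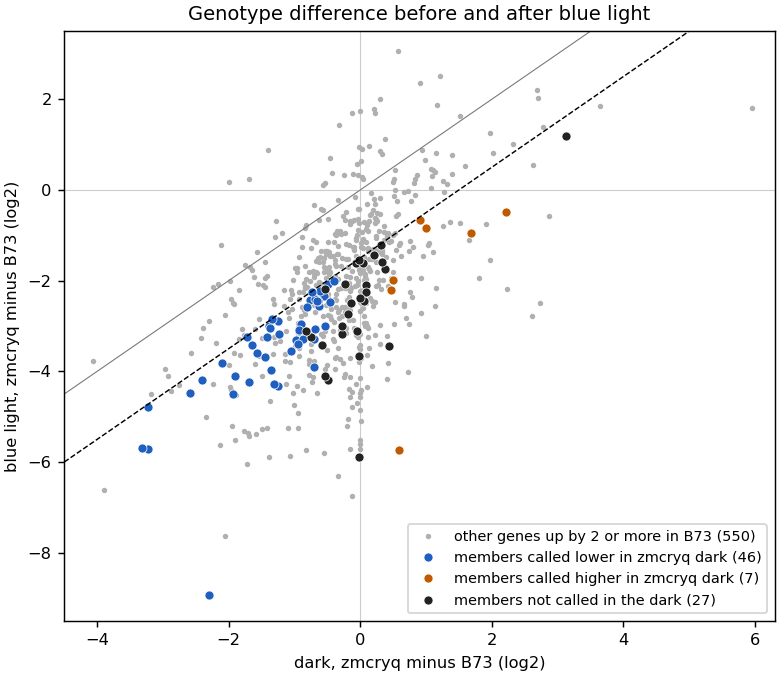
Genotype difference, zmcryq minus B73, in the dark (x axis) and under blue light (y axis) on the log2(scaled FPKM + 1) scale, for the 80 members and the 550 other genes with a B73 response of 2 or more. The grey line marks equal differences and the dashed line the 1.5 gap of the rule; 46 members were called lower in zmcryq in the dark, 7 higher and 27 neither, and 79 of 80 lie below 0 under blue light.

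The 46 members called lower in the dark had a median dark difference of -1.14, a median zmcryq response of 1.46 and a median B73 response of 3.52. The 27 members not called in the dark had a median dark difference of -0.02, with median responses of 1.31 in zmcryq and 3.83 in B73. In the 7 members called higher in the dark these responses were 1.41 and 3.88, and the median dark difference was 0.91. The rule fixed a smaller zmcryq response in each of these classes, and nothing is read from its size there.

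In scaled values the zmcryq dark libraries lay wholly below the B73 dark libraries for 45 members, as for 27.2% of all genes, and wholly above them for 6, as for 28.2% of all genes. Under blue light the zmcryq libraries lay wholly below the B73 libraries for 78 members, as for 32.5% of all genes. The members that overlapped there were Zm00001eb067330 and Zm00001eb399450. One further member, Zm00001eb279660, did not overlap in scaled values but was not called, at -0.66 ± 0.29 (SE, limma adjusted p 0.074). In deposited values it stood at 194, 127 and 271 FPKM in zmcryq blue and at 316, 149 and 382 FPKM in B73 blue, and these ranges overlapped. Its dark values were 9.77, 23.6 and 20.04 FPKM in zmcryq and 24.5, 10.8 and 7.00 FPKM in B73.

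The members with the lowest dark level relative to B73 were Zm00001eb224180 and Zm00001eb373150. Zm00001eb224180 stood at 7.57, 5.11 and 14.8 FPKM in zmcryq blue and 0.82, 2.88 and 2.16 FPKM in zmcryq dark, against 595, 221 and 616 FPKM in B73 blue and 47.1, 38.6 and 23.1 FPKM in B73 dark. Zm00001eb373150 stood at 16.3, 10.6 and 19.4 FPKM in zmcryq blue and 1.12, 3.64 and 3.82 FPKM in zmcryq dark, against 534, 225 and 506 FPKM in B73 blue and 61.7, 48.3 and 26.8 FPKM in B73 dark. For both genes every blue-lit zmcryq library was below every dark B73 library. The dark difference was -3.32 ± 0.22 for Zm00001eb224180 and -3.22 ± 0.26 for Zm00001eb373150, and the blue-light difference was -5.70 ± 0.22 and -4.80 ± 0.26 (SE). Without scaling the difference of the responses was -1.86 for Zm00001eb224180 (limma adjusted p 0.099) in place of -2.37, and -1.02 for Zm00001eb373150 (limma adjusted p 0.47) in place of -1.57.

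Among the members called higher in zmcryq in the dark, the largest dark difference belonged to Zm00001eb399450. It stood at 20.4, 9.30 and 29.8 FPKM in zmcryq blue and 4.57, 3.26 and 7.50 FPKM in zmcryq dark, against 43.7, 11.2 and 22.6 FPKM in B73 blue and 0.36, 1.35 and 0.52 FPKM in B73 dark. The blue-lit groups overlapped and the dark groups did not. The dark difference was 2.21 ± 0.40 and the blue-light difference -0.48 ± 0.40 (SE), so here the smaller zmcryq response of 1.02 ± 0.40, against 3.72 ± 0.40 in B73, came with a higher start and overlapping end levels. The call of its zmcryq response was lost in 12 of 19 other settings, and the response was 0.56 without zmcryq dark replicate 2 (limma adjusted p 0.16), and 1.69 without scaling. With a pseudocount of 5 its B73 response was 2.19, the difference of the responses -1.47 and the dark difference 1.07.

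**Figure D4:**
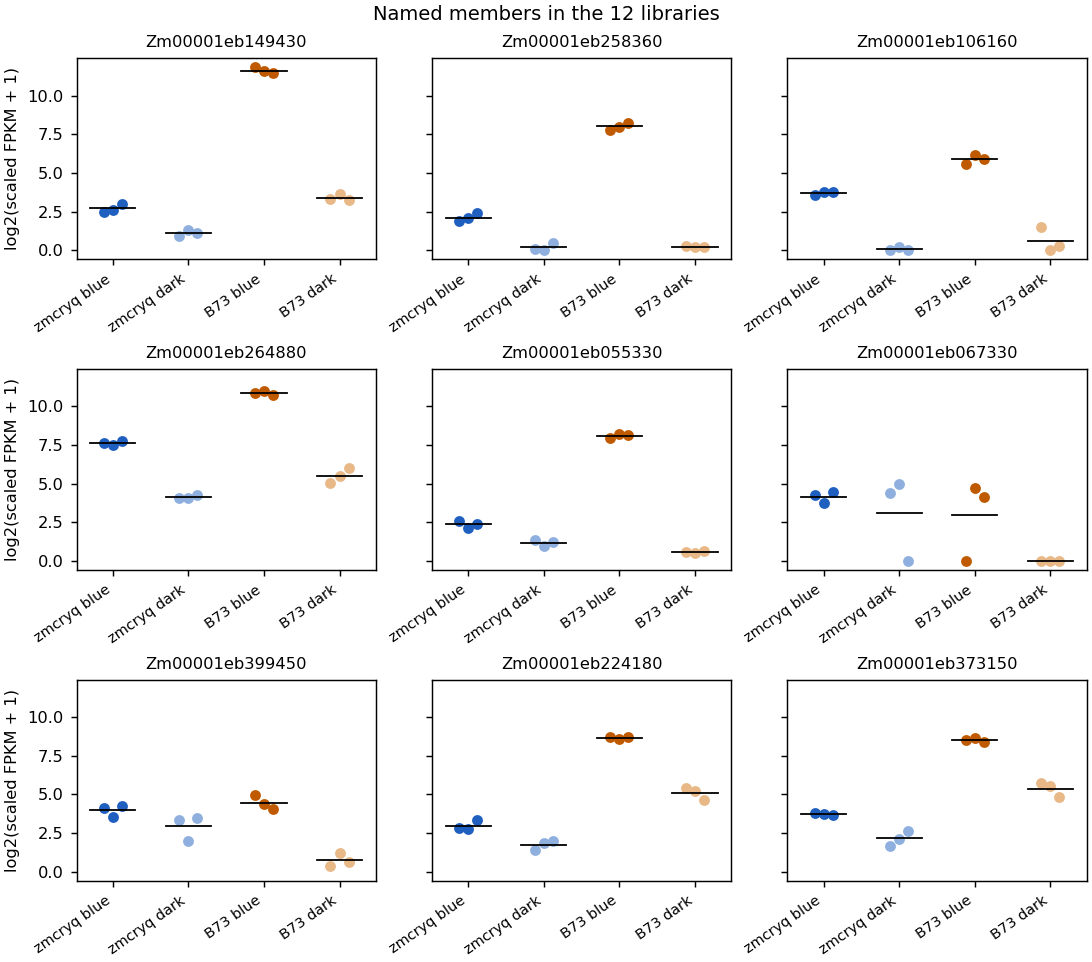
Level of 9 members in the 12 libraries, as log2(scaled FPKM + 1), with 1 point per library and a bar at the mean of each group of 3. Zm00001eb149430, Zm00001eb258360 and Zm00001eb055330 show the largest gaps between the blue-lit genotypes, Zm00001eb399450 overlapping blue-lit groups, and Zm00001eb067330 libraries at 0 beside libraries above 10 FPKM in 2 groups.

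Set against the unlit wild type, the blue-lit mutant was higher for 66 of the 80 members and lower for 14. The median log2 difference, zmcryq blue minus B73 dark, was 0.87 and the range -2.10 to 4.78, against a median of 0.02 over all genes tested and 0.56 over the 630 genes raised in B73. The zmcryq blue libraries were all above the B73 dark libraries for 53 members, as for 33.2% of all genes, and all below them for 8, as for 32.3% of all genes. By arithmetic this difference is the zmcryq response, which the rule set at 1 or more, plus the dark difference. The rule thus favours values above 0, so these counts are a description and nothing is read from them.

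Among the genes with a B73 response of 2 or more, the members had a higher median B73 response than the other classes, as the rule requires a B73 response of at least 2.5. Their median B73 response of 3.63 compared with 2.71 in the 337 genes with a zmcryq response under 1 and 2.36 in the 213 genes whose responses differed by less than 1.5. The median dark difference, zmcryq minus B73, was -0.65 in the members, -0.17 in the 337 genes and -0.25 in the 213 genes. Under blue light the median difference was -3.03 in the members, -2.64 in the 337 genes and -0.87 in the 213 genes. Lower dark levels in zmcryq were called for 57.5% of the members, against 40.6% of all 630 genes raised in B73. This difference between classes was not tested, since both are defined from these libraries.

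In zmcryq under blue light the median level was 8.66 scaled FPKM in the members, 2.18 in the 337 genes and 16.0 in the 213 genes. In B73 under blue light it was 88.4 scaled FPKM in the members, against 23.2 in the 337 genes and 23.3 in the 213 genes. The rule requires a B73 response of at least 2.5 in the members and of 2 in the other classes. It thereby favours a high B73 blue level in the members, and this difference was not tested. The dark medians were 2.43 in the members, 1.48 in the 337 genes and 2.55 in the 213 genes for zmcryq, and 4.83, 1.85 and 3.16 for B73 in the same order of classes.

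The log2(scaled FPKM + 1) scale understates the change of genes near 0, and more members were near 0 in zmcryq dark than in B73 dark. When the members were ranked by their mean over all 12 libraries and split in the middle, the more abundant 40 had median responses of 1.42 in zmcryq and 3.61 in B73, and the less abundant 40 had 1.38 in zmcryq and 3.64 in B73. Of the more abundant 40, 34 members were lower in zmcryq in the dark and 31 were called lower. Of the less abundant 40, 28 were lower and 15 were called, against 24.7% called lower over all genes. With no pseudocount, 64 of the 78 members with dark values above 0 kept a gap of 1.5 or more, and the B73 increase was above that of zmcryq in 76 of 78. The rule holds the gap at 1.5 or more among the abundant and the scarce members alike, so these medians describe the members and bear on no cause. With a pseudocount of 5 the zmcryq response was 0.78 for Zm00001eb149430, 0.70 for Zm00001eb258360, 0.55 for Zm00001eb055330, 0.68 for Zm00001eb224180, 1.02 for Zm00001eb373150 and 1.75 for Zm00001eb106160, and the B73 response of Zm00001eb106160 was 3.48. With 0.1 the zmcryq response of Zm00001eb258360 was 4.10 and that of Zm00001eb106160 was 6.41.

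The membership itself depended on the scaling between libraries. Without scaling, 86 genes met the rule, of which 43 were members, and the median zmcryq response over all genes tested was then 0.56 instead of 0.01. The median member had a response of 1.92 in zmcryq without scaling and of 3.65 in B73. The rule set the scaled zmcryq response at 1 or more, so nothing is read from its size against the median over all genes. Leaving out single libraries kept between 70 and 78 of the 80 members. Without scaling, 70 of the 80 members were lower in zmcryq in the dark, against 62 with it. The median dark difference over all genes tested was then -0.38 instead of 0.03. The test called 29 members lower in zmcryq in the dark without scaling, against 46 with it.

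**Figure D5:**
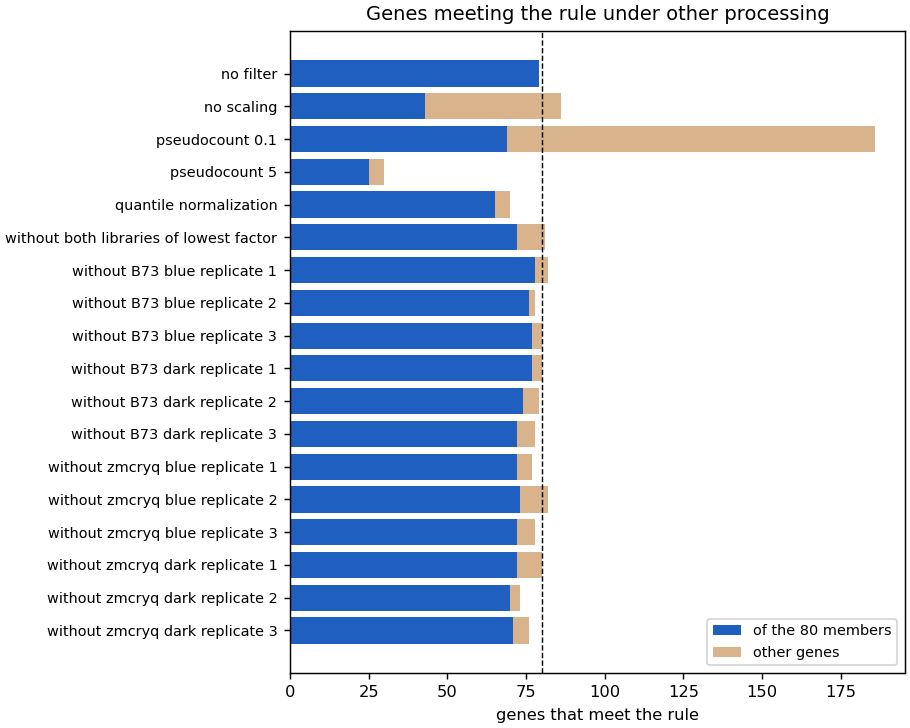
Number of genes that met the rule under other processing and with single libraries left out, split into the 80 members (blue) and other genes (tan), with a dashed line at 80. The pseudocount moved the count most, to 186 genes with 0.1 and to 30 with 5, and leaving out a library gave 73 to 82 genes.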

How the data were processed

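The authors deposited 1 table of FPKM values for 12 libraries; the unit is read from the values, since no header states it, and TPM over a larger gene set cannot be told apart from it. Per the submitters' processing notes, Trimmomatic 0.36, HISAT2 2.2.1.0, Cufflinks, TopHat, Bowtie2 and DESeq 1.18.0 were used, with no role given. The build, the annotation, the use of strand and the handling of fragments shared between genes are, in the sources used here, not given. Values of overlapping genes or of near-identical copies are therefore uncertain. The 4 columns of group means were not used.

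The filter kept genes that 3 or more libraries listed at no less than 1 FPKM, and factors came from the 19555 of them above 0 in every library. This scaling removes any shift shared by most genes. limma 3.58.1 in R 4.3.3 (trended, robust, 2-sided) fitted 1 mean per group to log2(scaled FPKM + 1); the fit was tested on simulated data. Standard errors are from this fit. The members, lists and settings were chosen with earlier results of these data known. The gene lists and promoter motifs could not be applied to IDs without names, and the rule for named genes then gave the 2 members with the largest B73 response. Further IDs, at most 2 per direction and comparison plus exceptions to a count, were chosen after their values were seen. The main fit did not pair libraries by replicate number.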

Additional observations from a re-analysis of the deposited data

Results flagged for a closer look

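The blue responses of the genotypes differed, by the test of the difference itself, for 78 of the 80 members, against 15.0% of all genes; the same contrast chose the members and fixes the direction, so nothing is read from the count, and it was 29 without scaling. Among the members named, the log2 response of zmcryq minus that of B73 was -6.63 for Zm00001eb149430, -6.33 for Zm00001eb055330, -5.88 for Zm00001eb258360 and -2.70 for Zm00001eb399450. It was -2.37 for Zm00001eb224180, -1.82 for Zm00001eb264880, -1.64 for Zm00001eb106160 and -1.57 for Zm00001eb373150. Without scaling, Zm00001eb224180, Zm00001eb264880, Zm00001eb106160 and Zm00001eb373150 were not called.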

How the results depend on the processing

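With a pseudocount of 0.1 the rule gave 186 genes, 69 of them members, and with 5 it gave 30, 25 of them members; the cause was not tested. With 5, 4 members were called higher in zmcryq in the dark. Without scaling, the smaller zmcryq response was called for 29 members, a lower dark level in zmcryq for 29 and a higher one for 1. The other counts under the planned settings were within 1.5 times those reported. Quantile normalization gave 70 genes (65 members) and no filter 79 (79 members). Without both libraries of lowest factor, a setting added after seeing the data, 81 genes met the rule, 72 of them members. Leaving out each of the 12 libraries in turn gave 73 to 82 genes by the rule, 77 to 78 members called higher in blue in zmcryq and 79 to 80 in B73, and 78 to 79 with a smaller zmcryq response. It gave 44 to 49 members called lower in zmcryq in the dark, 5 to 8 called higher there and 76 to 78 called lower in blue. Of the members named, only those plotted singly by library were followed through the settings. No called value of these changed sign. Calls were lost for Zm00001eb149430, Zm00001eb055330, Zm00001eb106160, Zm00001eb264880, Zm00001eb224180, Zm00001eb373150 and Zm00001eb399450 under the settings given beside their values. The zmcryq response of Zm00001eb399450 had an adjusted p of 0.067 with the replicate block (limma). Same-numbered libraries deviated together in some group pairs and not in others, with correlations from -0.30 to 0.32. With 3 libraries per group these correlations cannot settle whether the numbers mark pairs. The replicate block left 78 members with a smaller zmcryq response and 47 called lower in zmcryq in the dark. Values carry no read depth, so counting error is unknown.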

Other observations

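In 3 pairs of members the ID numbers lay 20 or fewer apart, a count made after the values were seen: Zm00001eb072910 and Zm00001eb072930, Zm00001eb075220 and Zm00001eb075230, and Zm00001eb297110 and Zm00001eb297120. Within the first pair the responses were 1.58 and 1.18 in zmcryq and 3.25 and 3.47 in B73, and within the second 1.54 and 1.88 in zmcryq and 3.39 and 3.43 in B73. The third pair differed more, with 1.63 and 2.66 in zmcryq and 3.56 and 5.15 in B73, and with dark differences, zmcryq minus B73, of -0.63 and -3.22. Positions and sequence likeness of these genes were not analysed here.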
